A study of Homo sapiens with 2 samples.

Results

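miR-218-5p and miR-328-3p are 2 microRNAs (miRNAs) reported to target CD44, the cell surface receptor for hyaluronan. They were looked up by their exact names in the deposited small RNA table, where both were found among 1213 entries, 1178 of them with miRNA names. The study compared UM-SCC6-M with UM-SCC6. UM-SCC6-M cells are invasion front cells, recovered after crossing a matrix channel in a microfluidic chip and put through 3 rounds of that selection, and the labels describe them as invasive with some mesenchymal characteristics. UM-SCC6 is the unselected parental line, an established human oral squamous cell carcinoma line. No other treatment or genetic change is named for either. Each is 1 library, so the differences have no replicate check, and the 2 kinds of cell were not tested against each other.

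miRNAs guide Argonaute proteins to messenger RNAs, mainly through their seed, the bases 2 to 8 from the 5′ end, and lower the output of the bound transcript. CD44 binds hyaluronan in the matrix and passes signals to the kinases ROCK1 and ROCK2, which drive actomyosin contraction and cell movement. miR-218-5p is known as a suppressor of migration in several carcinomas and represses ROBO1, the receptor of SLIT ligands. miR-328-3p is known as a repressor of CD44 and of the drug efflux pump ABCG2.

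The mature sequences, from RefSeq (GRCh38.p14), are shown because their seeds set which transcripts each can pair with. Capitals mark the seed.

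miR-218-5p: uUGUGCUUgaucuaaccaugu

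miR-328-3p: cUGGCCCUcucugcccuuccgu

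The seeds differ from each other, and among 2370 human mature miRNA names in RefSeq 0 others shared the seed of either, so each stands alone as a seed family. miR-218-5p is 21 bases long with 38.1% G and C, and miR-328-3p is 22 bases long with 68.2%. Among the 255 miRNAs with a sequence and at least 10 normalized reads, defined below, the median was 47.8%. Of these, 16.9% had less G and C than miR-218-5p and 96.1% had less than miR-328-3p, so the pair spans much of the range of base composition. Whether base composition affected capture by ligation was not tested.

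miR-218-5p is cut from 2 hairpins. MIR218-1 lies at chr4:20528275-20528384 on the plus strand, inside SLIT2, and MIR218-2 at chr5:168768146-168768255 on the minus strand, inside SLIT3. Both hosts are transcribed in the same direction as the hairpin, and 0 annotated transcripts of either host have an exon over it, so both are intronic (GENCODE release 29, GRCh38). MIR328 lies at chr16:67202321-67202395 on the minus strand, within an intron of ELMO3 but on the opposite strand to that gene, whose product takes part in cell engulfment and movement. The hairpins are shown to place the product on its arm, with the measured mature miRNA in capitals.

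MIR218-1: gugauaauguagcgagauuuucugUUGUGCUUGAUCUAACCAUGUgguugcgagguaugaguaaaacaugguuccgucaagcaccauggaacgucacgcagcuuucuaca

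MIR218-2: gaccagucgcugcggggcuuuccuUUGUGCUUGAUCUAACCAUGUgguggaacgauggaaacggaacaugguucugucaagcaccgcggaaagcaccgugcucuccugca

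MIR328: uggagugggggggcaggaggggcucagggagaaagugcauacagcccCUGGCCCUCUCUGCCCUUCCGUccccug

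Compared base by base, the miR-218 hairpins were identical at 70 of 110 positions (63.6%) and at all 21 positions of miR-218-5p, which begins at base 25 of both. The reads of miR-218-5p therefore cannot be assigned to SLIT2 or SLIT3. The 3p arms differ between the hairpins and could tell them apart, but neither miR-218-1-3p nor miR-218-2-3p had an entry under its name, and the same held for miR-328-5p. MIR585, a second hairpin inside SLIT3 (chr5:169263601-169263694), had no entry for either arm. Each member is thus measured through a single product.

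Levels are given on 2 scales. The deposited values are reads scaled by the authors, called normalized reads here. Every value was a whole multiple of a fixed step, taken as the worth of 1 read, and the reads recovered this way summed to 7699490 in UM-SCC6-M and 8182958 in UM-SCC6. A 95% interval is exact (Clopper-Pearson) and covers counting error only, since there is 1 library of each kind. It treats reads as independent, and because PCR copies are not independent molecules it may be too narrow even for that. Ratios are UM-SCC6-M over UM-SCC6 with 0.5 read added to each.

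miR-218-5p had 16.0 normalized reads in UM-SCC6-M and 101.7 in UM-SCC6, from 134 reads in UM-SCC6-M and 765 in UM-SCC6. Per 1000000 miRNA reads, its level was 17.4 in UM-SCC6-M (14.6 to 20.6) and 93.5 in UM-SCC6 (87.0 to 100.4). The 2 intervals do not meet. On the authors' scaling miR-218-5p was 6.33-fold lower in UM-SCC6-M (5.28 to 7.69), a log2 ratio of -2.66. Scaled to total reads, as the levels per 1000000 are, the log2 ratio was -2.42. miR-218-5p was a miRNA of middle rank in UM-SCC6, 144th of 499 with a value above 0, and 239th of 497 in UM-SCC6-M.

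miR-328-3p went the other way. It had 40.6 normalized reads in UM-SCC6-M and 15.8 in UM-SCC6, from 340 reads in UM-SCC6-M and 119 in UM-SCC6. Per 1000000 miRNA reads, its level was 44.2 in UM-SCC6-M (39.6 to 49.1) and 14.5 in UM-SCC6 (12.0 to 17.4). These intervals do not meet either. On the authors' scaling miR-328-3p was 2.56-fold higher in UM-SCC6-M (2.08 to 3.19), a log2 ratio of 1.36, and scaled to total reads the log2 ratio was 1.60. The rank of miR-328-3p was 176th of 497 in UM-SCC6-M and 247th of 499 in UM-SCC6.

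**Figure D1:**
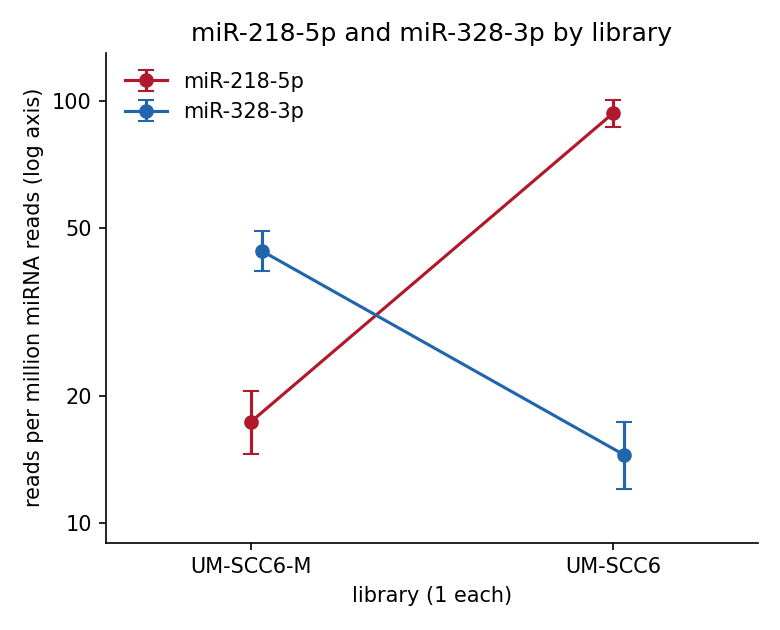
Level of miR-218-5p (red) and miR-328-3p (blue) in the UM-SCC6-M and UM-SCC6 libraries, in reads per 1000000 miRNA reads on a log axis, with exact 95% counting intervals (1 library each). The lines cross: miR-328-3p is the higher of the pair in UM-SCC6-M (44.2 against 17.4 for miR-218-5p) and miR-218-5p in UM-SCC6 (93.5 against 14.5 for miR-328-3p).

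The balance of the members within a library needs no scaling between libraries. In the UM-SCC6-M library miR-328-3p had 2.54 reads for each read of miR-218-5p (2.07 to 3.12), whereas in UM-SCC6 miR-218-5p had 6.43 reads for each read of miR-328-3p (5.29 to 7.87). miR-328-3p thus gave 71.7% of the pair's 474 reads in UM-SCC6-M (67.4 to 75.7) and 13.5% of its 884 reads in UM-SCC6 (11.3 to 15.9). The ratio of miR-328-3p to miR-218-5p was 16.2-fold higher in UM-SCC6-M, a log2 difference of 4.02 with a counting interval of 3.61 to 4.44. Summed, the pair stood at 56.6 normalized reads in UM-SCC6-M and 117.5 in UM-SCC6, so the sum was 2.08-fold lower in UM-SCC6-M, with miR-218-5p as its larger part in UM-SCC6 and miR-328-3p in UM-SCC6-M.

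The log2 fold change of miR-218-5p was -2.6675 in the authors' deposited table, with 4.49e-13 as its q-value. That of miR-328-3p was 1.3603 in the authors' deposited table, with 0.000556 as its q-value. Both carried the authors' mark for selected entries, as did 44 entries in all, 17 with a positive and 27 with a negative fold change in the authors' deposited table. These q-values compare 2 libraries and not the 2 kinds of cell.

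Across all miRNAs, a difference of at least 2-fold was used as the call, since 1 library a group allows no test. Among the 179 that reached 50 normalized reads in their higher library, 23 were at least 2-fold lower in UM-SCC6-M (12.8%) and 13 at least 2-fold higher (7.26%). miR-218-5p is in this set and had the 4th lowest ratio in it. The 3 below it were miR-32-5p (33.7 normalized reads in UM-SCC6-M and 324.2 in UM-SCC6, log2 ratio -3.27), miR-29b-3p (43.8 in UM-SCC6-M and 365.6 in UM-SCC6, -3.06) and miR-7974 (21.9 in UM-SCC6-M and 147.5 in UM-SCC6, -2.75). miR-29b-3p is known for repressing collagen transcripts. The interval of miR-32-5p (-3.45 to -3.09) lay below that of miR-218-5p (-2.94 to -2.40), while those of miR-29b-3p and miR-7974 overlapped it.

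miR-328-3p did not reach 50 normalized reads and is read against the 288 miRNAs with at least 10, of which 45 were at least 2-fold lower in UM-SCC6-M (15.6%) and 21 at least 2-fold higher (7.29%). In that set miR-328-3p had the 12th highest ratio and miR-218-5p the 6th lowest. The middle of the set lay between log2 ratios of -0.63 and 0.37 (quartiles), with a median of -0.08, so both members stood well outside it, on opposite sides.

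The ratios of low miRNAs rest on fewer reads, so each member was also set beside miRNAs of its own level in UM-SCC6. Of 54 miRNAs within 2-fold of the UM-SCC6 level of miR-218-5p, itself included, 8 were at least 2-fold lower in UM-SCC6-M (14.8%) and 4 at least 2-fold higher (7.41%), and the lowest was miR-7974 at -2.75. Of 104 miRNAs within 2-fold of the UM-SCC6 level of miR-328-3p, itself included, 7 were at least 2-fold higher (6.73%) and 22 at least 2-fold lower (21.2%), with a highest log2 ratio of 1.49.

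**Figure D2:**
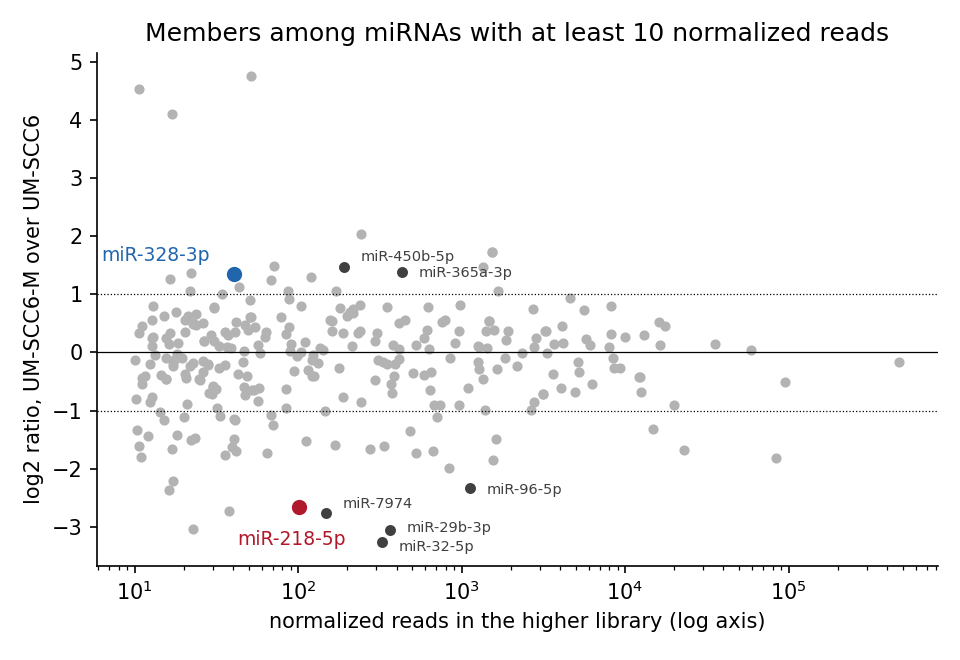
Log2 ratio of UM-SCC6-M over UM-SCC6 (vertical axis) against normalized reads in the higher library (horizontal log axis) for 288 miRNAs with at least 10 normalized reads there, 1 point each, with dotted lines at 2-fold. miR-218-5p (red) lies at -2.66 near the lower edge, beside miR-7974, and miR-328-3p (blue) at 1.36 among the 21 miRNAs above the upper line.

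In the order of ratios over those 288 miRNAs, the neighbours of miR-218-5p were miR-548u (-3.03), miR-7974 (-2.75) and miR-125b-1-3p (-2.73) below it and miR-1307-5p (-2.36), miR-96-5p (-2.33) and miR-188-5p (-2.20) above it. All 6 had counting intervals that overlapped that of miR-218-5p, so its place among them is not resolved. miR-96-5p, of the sensory organ cluster with miR-182 and miR-183, was the most abundant of them, at 223.4 normalized reads in UM-SCC6-M and 1122 in UM-SCC6. The neighbours of miR-328-3p were miR-503-5p (1.24), miR-4286 (1.26) and miR-542-3p (1.30) below it and miR-125b-2-3p (1.36), miR-365a-3p (1.38) and miR-450b-5p (1.47) above it, and all 6 intervals again overlapped. miR-503-5p, miR-542-3p and miR-450b-5p come from 1 cluster on the X chromosome. The minor arms from the separate miR-125b hairpins thus lay next to opposite members, miR-125b-1-3p with 47 reads in UM-SCC6-M and 283 in UM-SCC6 and miR-125b-2-3p with 184 in UM-SCC6-M and 64 in UM-SCC6.

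The miRNAs most like each member in both libraries were taken as the 5 nearest on log2(normalized reads + 1) over the 2 libraries. This likeness rests on 2 values each. Because the 5 were chosen on these values, sharing the direction of the member follows from the choice. For miR-218-5p these were miR-7974 (distance 0.68), miR-339-3p (0.69), miR-331-5p (0.996), miR-500a-5p (1.13) and miR-584-5p (1.25). All 5 had lower values in UM-SCC6-M, with log2 ratios from -2.75 to -1.07. For miR-328-3p they were closer, with miR-424-5p (0.26), miR-1260b (0.31), miR-126-5p (0.43), let-7e-3p (0.43) and miR-193b-5p (0.65). Their log2 ratios ran from 0.51 to 1.13, all below the 1.36 of miR-328-3p.

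The other miRNAs reported to target CD44 came next. Of the 11 on the list, members included, 6 had an entry, and all 6 reached 10 normalized reads. They were 2 at least 2-fold lower in UM-SCC6-M, 2 at least 2-fold higher and 2 between, with a median log2 ratio of -0.16 beside -0.08 over all 288 miRNAs. Against backgrounds of 15.6% lower and 7.29% higher, the list held calls on both sides. miR-216a-5p, miR-373-3p, miR-520c-3p, miR-608 and miR-708-5p had no entry under these names.

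miR-143-3p, a miRNA of smooth muscle and fibroblasts, had 34 reads in UM-SCC6-M and 78 in UM-SCC6, a log2 ratio of -1.34 (-1.98 to -0.75). miR-34a-5p, a p53 target that represses CD44 in prostate cancer stem cells, had 34.5 normalized reads in UM-SCC6-M and 53.8 in UM-SCC6, a log2 ratio of -0.64 (-0.86 to -0.42). These 2 lie on the side of miR-218-5p. miR-199a-3p had 21.9 normalized reads in UM-SCC6-M and 10.5 in UM-SCC6, a log2 ratio of 1.05 (0.67 to 1.46), and lies with miR-328-3p. miR-330-3p was the most abundant of the list in UM-SCC6-M, at 84.2 normalized reads there and 67.2 in UM-SCC6, with a log2 ratio of 0.32 (0.16 to 0.49).

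miR-143-3p and miR-199a-3p also mark fibroblasts and other stroma. Of the 7 stromal markers 3 were listed at 0 in both libraries (miR-127-3p, miR-145-5p and miR-214-3p), and the summed level of the list was 113.1 normalized reads in UM-SCC6-M and 64.6 in UM-SCC6. Of the 4 with reads, 2 were at least 2-fold higher, miR-199a-3p and miR-199b-5p (87.2 normalized reads in UM-SCC6-M and 42.0 in UM-SCC6, the larger part of both sums). The other 2 were at least 2-fold lower, miR-143-3p and miR-199a-5p (1 read in UM-SCC6-M and 13 in UM-SCC6). At 10 normalized reads 3 of these markers were left, 2 higher and 1 lower. Over all 288 miRNAs at that floor the shares were 7.29% higher and 15.6% lower, and 3 markers are too few to set against them. Of the 9 epithelial and squamous markers 6 had values above 0, summing to 19717 normalized reads in UM-SCC6-M and 16443 in UM-SCC6, most of it miR-200b-3p. The log2 ratios of miR-200b-3p (0.45) and miR-203a-3p (1.49, from 23 reads in UM-SCC6-M and 7 in UM-SCC6) were positive. Those of miR-200a-3p (-0.99), miR-200c-3p (-0.56), miR-429 (-0.09) and miR-31-5p (-0.07) were negative, and the median of the 6 was -0.08. miR-205-5p and miR-141-3p had no entry. The endothelial markers summed to 550.5 normalized reads in UM-SCC6-M and 986.1 in UM-SCC6, most of it miR-126-3p (log2 ratio -0.90), while miR-126-5p went the other way (0.78). The blood markers summed to 17.9 normalized reads in UM-SCC6-M and 24.6 in UM-SCC6. The neural markers summed to 1405 normalized reads in UM-SCC6-M and 1708 in UM-SCC6, most of it miR-128-3p (log2 ratio -0.29). The muscle markers summed to 111.3 normalized reads in UM-SCC6-M and 337.1 in UM-SCC6, most of it miR-1-3p (log2 ratio -1.61). The part of stromal RNA in the values of miR-143-3p and miR-199a-3p was not tested.

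**Figure D3:**
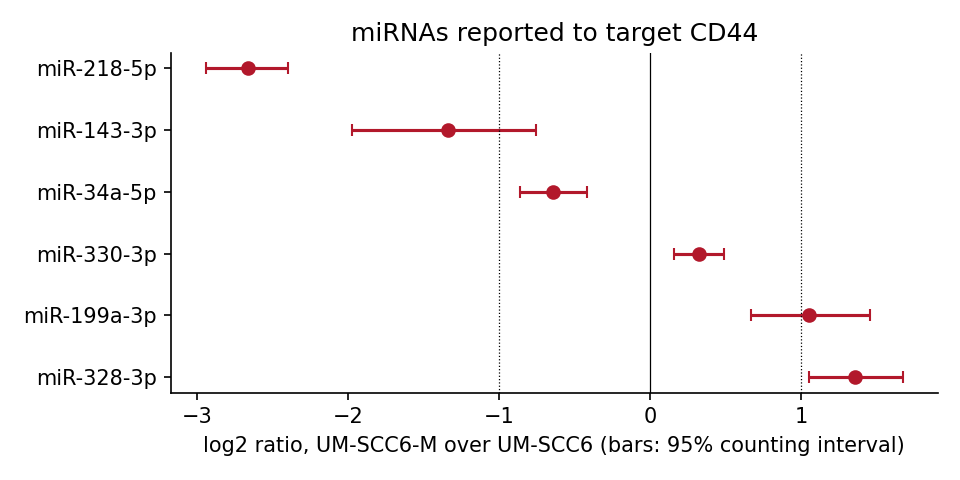
Log2 ratio of UM-SCC6-M over UM-SCC6 for the 6 reported CD44-targeting miRNAs that reached 10 normalized reads in their higher library, with exact 95% counting intervals and dotted lines at 2-fold. miR-218-5p (-2.66) and miR-328-3p (1.36) are the ends of the range.

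Sequence gave a further description of the pair. A match to the seed was searched on the transcript strand of the longest annotated 3′ UTR of each gene (GENCODE release 29), as AAGCACA for miR-218-5p and AGGGCCA for miR-328-3p. The CD44 3′ UTR, 3069 bases long, held 1 match for miR-218-5p and 0 for miR-328-3p. Of 2186 3′ UTRs with 0.8 to 1.2 times that length, 25.2% held the miR-218-5p match and 21.3% the miR-328-3p match. Over all 19132 genes the shares were 14.0% and 12.7%. The ROCK1 and ROCK2 3′ UTRs held neither match. ROBO1 held 1 match for miR-218-5p, followed by the A that makes it an 8-mer. ABCG2 held 1 match for each member.

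The windows are shown to place each match on its transcript (GRCh38), 5′ to 3′, with the letters that pair with the seed in capitals.

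CD44, miR-218-5p, chr11:35231694-35231714, plus strand: ggcgtaactctggAAGCACAg

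ROBO1, miR-218-5p, chr3:78597935-78597955, minus strand: tttttggttttaaAAGCACAa

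ABCG2, miR-218-5p, chr4:88091705-88091725, minus strand: aaatctttttgatAAGCACAt

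ABCG2, miR-328-3p, chr4:88091608-88091629, minus strand: tgtgggtagagtagAGGGCCAg

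The CD44 match begins at base 2374 of its 3′ UTR. A match is a string of letters and not a measured binding site, and the absence of one says only that these letters are not in that 3′ UTR. None of these transcripts was measured here.

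Of the 11 listed CD44-targeting miRNAs, 6 had at least 1 seed match in this 3′ UTR, and of those 6 only miR-218-5p and miR-143-3p had an entry. Of the others with an entry, miR-328-3p, miR-330-3p, miR-199a-3p and miR-34a-5p all had 0 matches. The sequence of miR-143-3p is shown with the seed in capitals, beside those of miR-199a-3p and miR-34a-5p.

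miR-143-3p: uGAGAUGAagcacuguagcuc

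miR-199a-3p: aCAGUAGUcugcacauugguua

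miR-34a-5p: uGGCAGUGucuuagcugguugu

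The same search was then run for every miRNA with a RefSeq sequence. Names without a sequence could not be searched, so some matches may be missed. The search sets miR-218-5p among the measured miRNAs found to have a seed match in the CD44 3′ UTR. At 50 or more normalized reads there were 14, and 1 of them was at least 2-fold lower in UM-SCC6-M, miR-218-5p itself, against 13.3% of the 158 with a sequence. The next lowest was at -0.41 (miR-629-5p). Of the 14, 3 were at least 2-fold higher, against 6.33% of the 158, and these were miR-374c-3p (1.72), miR-450b-5p (1.47) and miR-365a-3p (1.38). miR-374c-3p lies opposite miR-374b on 1 locus, and its values were 1540 normalized reads in UM-SCC6-M and 466.4 in UM-SCC6. miR-374b-5p, which had no seed match, had almost the same values, 1541 in UM-SCC6-M and 466.7 in UM-SCC6. Whether the value of miR-374c-3p rests on reads of miR-374b-5p was not tested. The higher calls of miR-450b-5p and miR-365a-3p do not depend on miR-374c-3p.

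At 10 or more normalized reads there were 38, of which 11 were at least 2-fold lower (28.9%). That share was 16.9% over the 255 with a sequence and 14.7% over the 217 without a match. Of the 38, 3 were at least 2-fold higher (7.89%), against 6.27% of the 255 and 5.99% of the 217. The 3 again included miR-374c-3p. miR-218-5p was the lowest of the 38, followed by miR-188-5p at -2.20. The 38 had a median log2 ratio of 0.09 and the 217 without a match one of -0.11. The added lower calls all came from miRNAs under 50 normalized reads, among them miR-138-5p (-1.48) and miR-143-3p. These miRNAs were named after their values were seen. At this floor the matched set held a larger share of lower calls than the unmatched, while its median was not lower. At 50 or more the share of lower calls was 7.14% in the matched set and 13.9% in the unmatched. Whether a match bears on the levels was not tested.

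**Figure D4:**
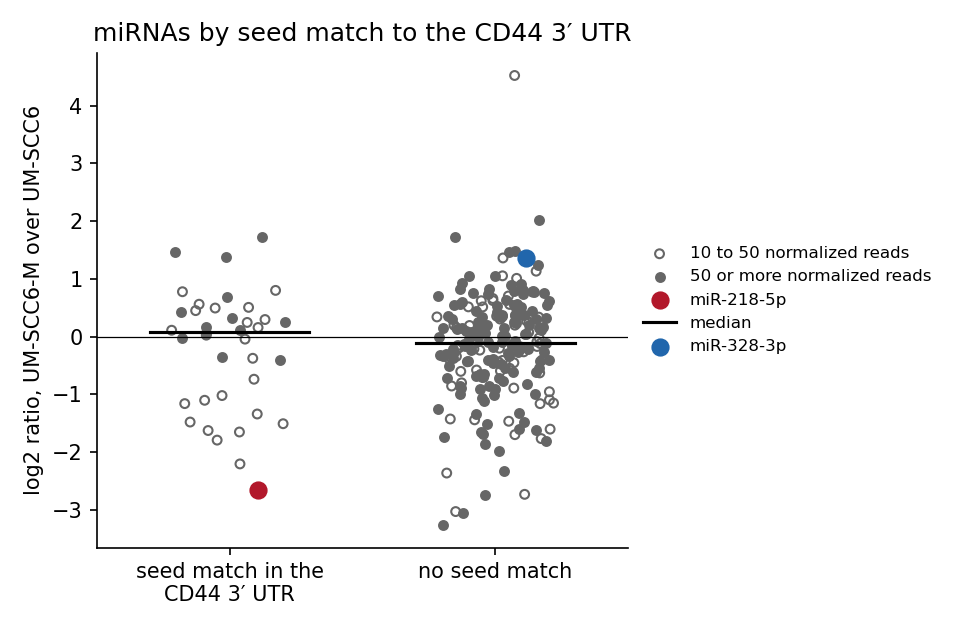
Log2 ratio of UM-SCC6-M over UM-SCC6 for 38 miRNAs with a seed match in the CD44 3′ UTR and 217 without one, at 10 or more normalized reads in the higher library; filled points have 50 or more, and lines are medians. miR-218-5p (red) is the lowest of the matched set at -2.66, and miR-328-3p (blue) lies in the unmatched set at 1.36.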

How the data were processed

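The authors deposited 1 table of scaled reads (a signal per miRNA) for 2 libraries, made from 3 µg of total RNA with fragments of 140 to 160 bp cut from a gel, per the labels' protocols. Bowtie is named in the submitters' processing notes. The genome build, miRNA database, counter and scaling are not given in the sources used here. Values below 1 are listed as 0. The authors' log2 fold change, p-value and q-value columns, per the file headers, were copied and used for no call, except that the log2 fold change gave the reads of a library listed at 0 where the other was not.

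Reads were recovered by dividing by the step, 0.119 normalized reads in UM-SCC6-M and 0.133 in UM-SCC6, with a largest deviation of 7.16e-05 reads. Ratios use the authors' scaling. Names matched a RefSeq mature sequence for 1037 of 1178 miRNAs. The lists and both members were chosen with earlier results of these data known. miRNAs were named by rule: the members, their nearest and neighbouring miRNAs, list members and any lower ratio at 50 normalized reads. 1 further list is not reported here. The seed match set was added after the data were seen. Read recovery and the intervals were checked on simulated libraries that held counting error only. Those libraries had no PCR copies and no spread between replicates, so the check cannot show how the intervals hold here. Python 3.11.15, numpy 2.4.6, pandas 2.3.3, scipy 1.17.1 and matplotlib 3.10.9 were used.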

Additional observations from a re-analysis of the deposited data

How the results depend on the processing

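Both members kept their direction and stayed within their counting intervals under 4 other scalings, the deposited fold change, 5 reads added and 1 normalized read added, and their log2 difference did so under the last 2. Scaling to total reads adds 0.24 to every log2 ratio, which gives miR-218-5p -2.42 and miR-328-3p 1.60. No paired analysis was possible because each group has 1 library.

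The counts moved with floor and threshold. Unless another floor is named, counts over all miRNAs use a floor of 50 normalized reads. Those of the CD44-targeting and seed match miRNAs use a floor of 10. Counts at the same threshold or scaling are thus not from like sets and give no share. Over all miRNAs, the lower and higher counts (23 and 13) were 107 and 59 with no floor. They were 45 and 21 at 10 normalized reads and 15 and 6 at 200. At 1.5-fold they were 46 and 32, and at 4-fold 5 and 2. Under scaling to total reads they were 20 and 22, so lower calls no longer outnumbered higher ones. The median over all miRNAs, 0.04, turned to -0.034 with no floor, -0.078 at 10 and -0.014 at 200. It was 0.28 under scaling to total reads. Of the CD44-targeting miRNAs, 1 was lower and 0 higher both at a floor of 50 and at 4-fold. Their median was -0.64 at a floor of 50 and turned to 0.084 under scaling to total reads. These medians give no direction. The miRNAs with a CD44 seed match had lower and higher counts of 11 and 3 among 38 (28.9% and 7.89%). These counts were 2 and 0 at 4-fold and 21 and 7 with no floor. The size of the set with no floor is not given here, so 21 and 7 give no share. Of the matched miRNAs, 1 was lower at 50 and 0 at 200, while 6 were higher at 1.5-fold and 5 under scaling to total reads. At a floor of 200 no CD44-targeting miRNA was left.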
